A study of Mus musculus with 8 samples.

Results

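The genes of prostaglandin synthesis and reception were read in the adult mouse oviduct, as 10 genes found by name on the array, out of 27669 genes with a probe: the cyclooxygenases Ptgs1 and Ptgs2, the terminal synthases Ptges, Ptgds and Ptgis, and the receptors Ptgfr, Ptger2, Ptger3, Ptger4 and Ptgir. They were read by 16 probes of the 41174 noncontrol probes on the array. All arrays carried oviduct RNA of female CD-1 mice, an outbred strain, on pregnancy day 2 (GD2), 48 hr after human chorionic gonadotropin (hCG). Controls (4 arrays) had received corn oil by subcutaneous injection on PND1–PND5, and Gen-treated mice (4 arrays) had received genistein (Gen), a soy phytoestrogen that binds estrogen receptors, in corn oil at 50 mg/kg/day on the same days. All mice were superovulated with gonadotropins and mated at 6–8 weeks of age, so both groups carried the hormone treatment, and embryos were taken out of the oviducts before RNA was made. The methods call the 4 arrays of a group independent biological replicates, without the number of mice in each. The dose was given neonatally and the RNA taken in the adult, so the values speak of GD2 and not of the days of injection.

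Prostaglandins are short-lived lipid signals that act close to the cells that make them. A phospholipase A2 frees arachidonic acid from membranes, a cyclooxygenase converts it to prostaglandin H2, and a terminal synthase then makes 1 product: prostaglandin E2 (Ptges), prostaglandin D2 (Ptgds) or prostacyclin (Ptgis). Each product acts through receptors coupled to G proteins, some of which raise cyclic AMP and relax smooth muscle while others raise calcium and contract it. In the oviduct these signals are known for their part in the muscle activity that moves gametes and embryos and in the secretion of the epithelium.

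The sequences of 2 probes are given here because results below turn on them. The Ptgds probe is that of the only member called, and the Ptgis probe that of the synthase with the smallest difference. Each probe is 60 bases long and is written 5′ to 3′ as designed, with its mm7 position (mouse genome, NCBI build 35) from the scanner files.
Ptgds: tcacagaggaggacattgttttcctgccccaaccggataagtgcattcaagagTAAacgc
Ptgis: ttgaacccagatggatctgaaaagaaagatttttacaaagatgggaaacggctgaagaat
The Ptgds probe lies at chr2:25474633-25475164 on the minus strand. Its genome span of 532 bases exceeds the 60 bases of the probe, so it reads across a splice junction. The capitals in the Ptgds probe mark the stop codon TAA at base 54, which follows 17 codons without a stop in its frame. The Ptgis probe lies at chr2:166947459-166947518 on the minus strand, within 1 unbroken stretch. No letters are marked in the Ptgis probe.

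Of the 10 members, 1 passed the test. Ptgds, the lipocalin-type prostaglandin D synthase, was lower in Gen-treated mice, and the other 9 did not pass at an adjusted p of 0.05 (limma, Benjamini-Hochberg over 41173 probes). This count is 10% of the members. Among the 19247 genes read at their brightest probe and well above background on all 4 arrays of a group, 5.34% were called, 3.16% higher and 2.18% lower in Gen-treated mice, and over all probes the shares were 16.2%, 2.17% and 14%. A count of 1 in 10 is too small to be told from these shares. Of the 5782 lower calls over all probes, 4996 were among the 7855 probes that were not well above background on any array, which had a median difference of -1.16 (log2), against 0.005 for the genes detected on all 8 arrays.
The 4 Gen values lay wholly above or below the 4 control values for 3 members, Ptgs2 and Ptgds (lower) and Ptges (higher), where 12.5% of the genes of the same kind were so divided. Ptgs2 overlapped without scaling, with a floor and with its probes averaged, and Ptges overlapped with normexp correction. By direction, 4 of the 10 differences were positive, and their median was -0.11. Without adjustment, 5 members had p under 0.05 in the same fit, namely Ptgs1, Ptgs2, Ptges, Ptgds and Ptgfr. Such p-values were common on the array, at 11610 of the 41173 probes tested by limma. With dim probes taken out, 5612 of the 28967 probes left had one. Whether the members exceeded these shares was not tested. Because each group had been hybridized on a slide of its own, none of the differences given here can be told apart from one between slides. RNA of a whole oviduct also does not tell fewer cells of a type from less RNA per cell.

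**Figure D1:**
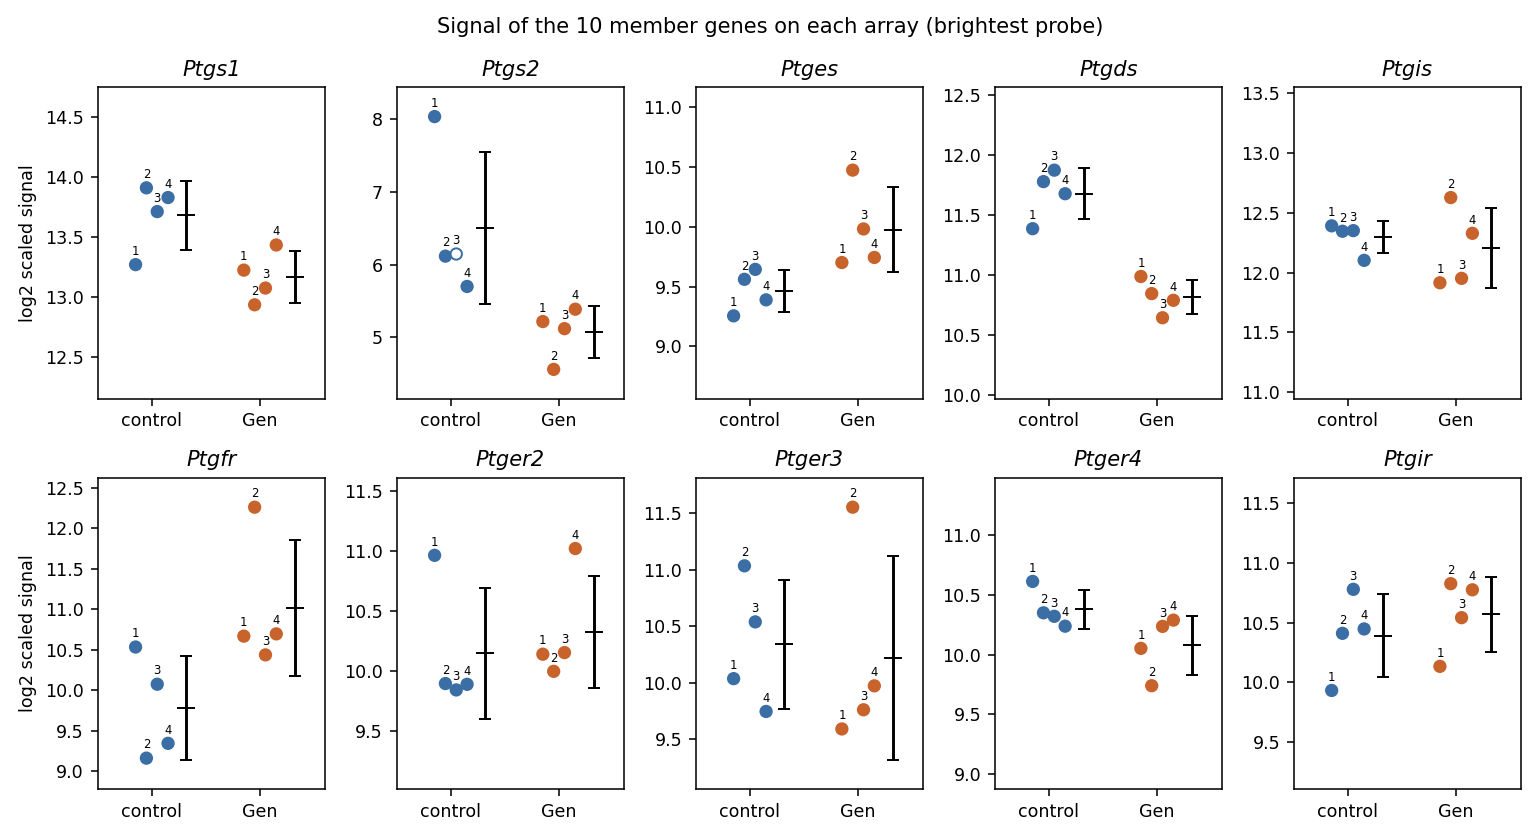
Scaled signal (log2) of the 10 members on each of the 8 arrays, read at the brightest probe. Points are arrays labelled with their replicate number (blue control, orange Gen, open where the signal was not well above background), and bars give the mean and SD of 4 arrays. All 4 Gen points of Ptgds and Ptgs2 lie below the control points and those of Ptges lie above them, and the axes differ between genes.

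Ptgds had the lowest residual SD of the 10 members relative to all detected probes. This enzyme makes prostaglandin D2 and is also a secreted carrier of small lipophilic molecules. Its scaled signals were 2674, 3511, 3752 and 3274 in control replicates 1 to 4 and 2028, 1837, 1597 and 1767 in Gen replicates 1 to 4. The lowest control array was thus above the highest Gen array. The mean signal was 3277 in controls and 1800 in Gen-treated mice, a change of -0.86 ± 0.14 (log2, SE, n = 4 per group, 95% confidence interval -1.19 to -0.54), or 1.82-fold lower, with an adjusted p of 0.0236 by limma. The exact 2-sided permutation test over arrays gave p = 0.0286, which is the smallest p that 4 arrays against 4 can give. When dim probes were taken out of the table before adjustment, the adjusted p was 0.0345.
Over the 11 other ways to process or test, the difference ranged from -0.98 to -0.62 and the adjusted p from 0.018 to 0.161. These include the deposited series table, which holds the same values. The call was lost without scaling between arrays, with a floor under the signals, with the methods' t-test and with the replicate number as a block. It was also lost without control replicate 1, Gen replicate 1, Gen replicate 2 or Gen replicate 3, where the adjusted p was at most 0.0675 and the difference between -0.96 and -0.80 over all 8 arrays left out in turn.

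The cyclooxygenases come before all 3 synthases. Ptgs1, the form made constantly in many tissues, had signals of 9863, 15380, 13407 and 14542 in controls and 9554, 7817, 8613 and 11051 in Gen-treated mice. The groups overlapped only through control replicate 1, which was below Gen replicate 4. The difference was -0.51 ± 0.18 (log2, SE, n = 4 per group; adjusted p = 0.0963 by limma), and p was 0.0571 by the exact 2-sided permutation test. It passed the threshold in 1 of the 11 other settings, an intensity trend with a robust fit, at an adjusted p of 0.0497.

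Ptgs2, the inducible form known for its rise in ovulating follicles, was a dim gene here and varied most. Its brighter probe read 262, 69.3, 70.8 and 51.9 in controls and 37.2, 23.6, 34.8 and 41.8 in Gen-treated mice. Control replicate 1 was far above the others, and control replicate 3 was not well above background in spite of its value. The remaining control values also lay above the Gen range, control replicate 4 the nearest to it at 51.9 against 41.8. The difference was -1.43 ± 0.48 (log2, SE, n = 4 per group; adjusted p = 0.0898 by limma), and the exact 2-sided permutation test gave 0.0286. Without control replicate 1 it was -0.92, the smallest value of the 8 arrays left out in turn. The Ptgs2 probe was compared with 1228 probes of similar brightness that were well above background on at least as many arrays. Their median difference was 0.01 and 1.63% were at least as low. Probes of this brightness detected on fewer arrays were left out, so a shift of such dim probes is not covered. With normexp correction the difference of Ptgs2 was -0.94, and with a floor under dim signals -0.54.
The second probe of Ptgs2, placed 269 bases away, was printed in 10 spots on every array. The spots of 1 array differed by an SD of 0.17 (log2, pooled over arrays), and the array means of a group by 0.95, which holds labelling and hybridization beside the samples. The spots of control replicate 1 ran from 222 to 248 and those of control replicate 4 from 34.6 to 54.3. Gen replicate 2 was lowest, at 11.4 to 19.6, with 4 of 8 spots well above background. Gen replicate 4 lay at 53.0 to 61.5, inside the range of the controls. This probe therefore did not divide the groups: the difference was -1.30 ± 0.59 (log2, SE, n = 4 per group; adjusted p = 0.194 by limma). In control replicate 3, 0 of 9 spots were well above background although their signals, 56.1 to 72.4, exceeded those of control replicate 4, where 9 of 10 were.

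**Figure D2:**
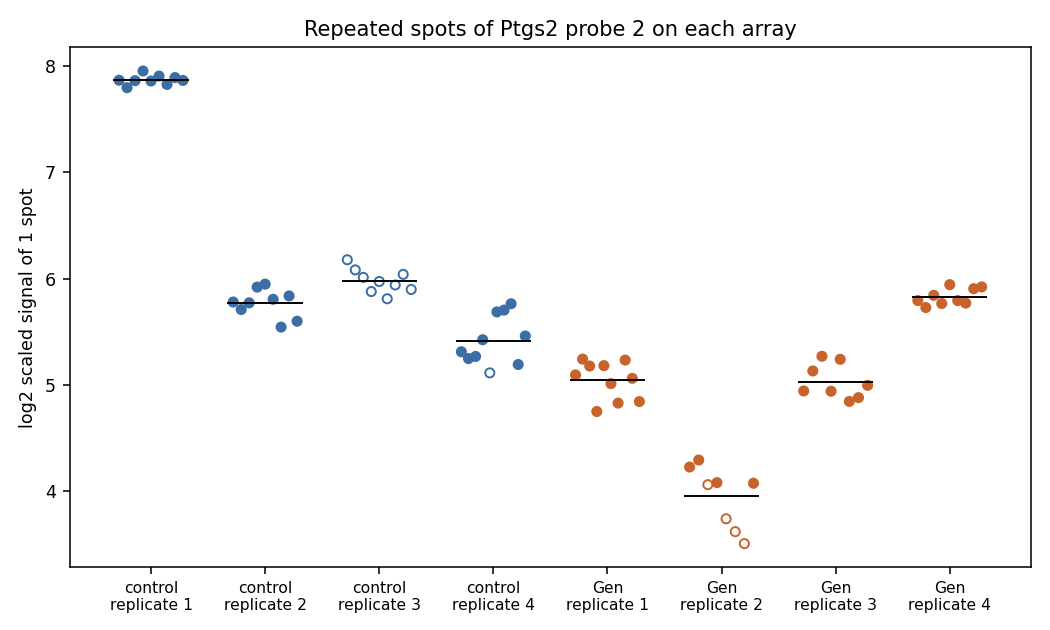
Scaled signal (log2) of each spot of the second Ptgs2 probe on the 8 arrays, without outlier spots. Black lines are array means, and open points were not well above background. The pooled SD between spots of an array is 0.17, and control replicate 1 stands above all others.

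Whether Ptgs2 differed from Ptgs1 in its change was tested within arrays. The log2 signal of Ptgs2 minus that of Ptgs1 changed by -0.91 ± 0.67 (SE, n = 4 per group), with p = 0.114 by the exact 2-sided permutation test and 0.143 adjusted over the 3 such differences tested. A difference in the response of the pair of cyclooxygenases was not detectable with 4 arrays per group.

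The other terminal synthases did not pass the test. Ptges, the inducible microsomal prostaglandin E synthase, read 611, 755, 800 and 670 in controls and 832, 1420, 1011 and 857 in Gen-treated mice. All 4 Gen arrays exceeded all controls, Gen replicate 2 by the most. The difference was 0.51 ± 0.19 (log2, SE, n = 4 per group; adjusted p = 0.122 by limma), with p = 0.0286 by the exact 2-sided permutation test, and it did not pass the threshold in any of the 11 other settings.
Ptgis, which makes prostacyclin, read 5368, 5203, 5222 and 4396 in controls and 3861, 6323, 3961 and 5141 in Gen-treated mice. The Gen values lay on both sides of the controls, and the difference was -0.09 ± 0.18 (log2, SE, n = 4 per group; adjusted p = 0.785 by limma) with an interval of -0.51 to 0.32. A change of up to about that size in either direction is left possible by these arrays. Within arrays, the log2 signal of Ptgis minus that of Ptges changed by -0.60 ± 0.16 (SE, n = 4 per group) and did not overlap between groups, from 2.71 to 3.13 in controls and from 1.97 to 2.58 in Gen-treated mice. The exact 2-sided permutation p was 0.0286, and 0.0857 after adjustment over the 3 differences. Without any 1 of the control arrays it was 0.0571.

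**Figure D3:**
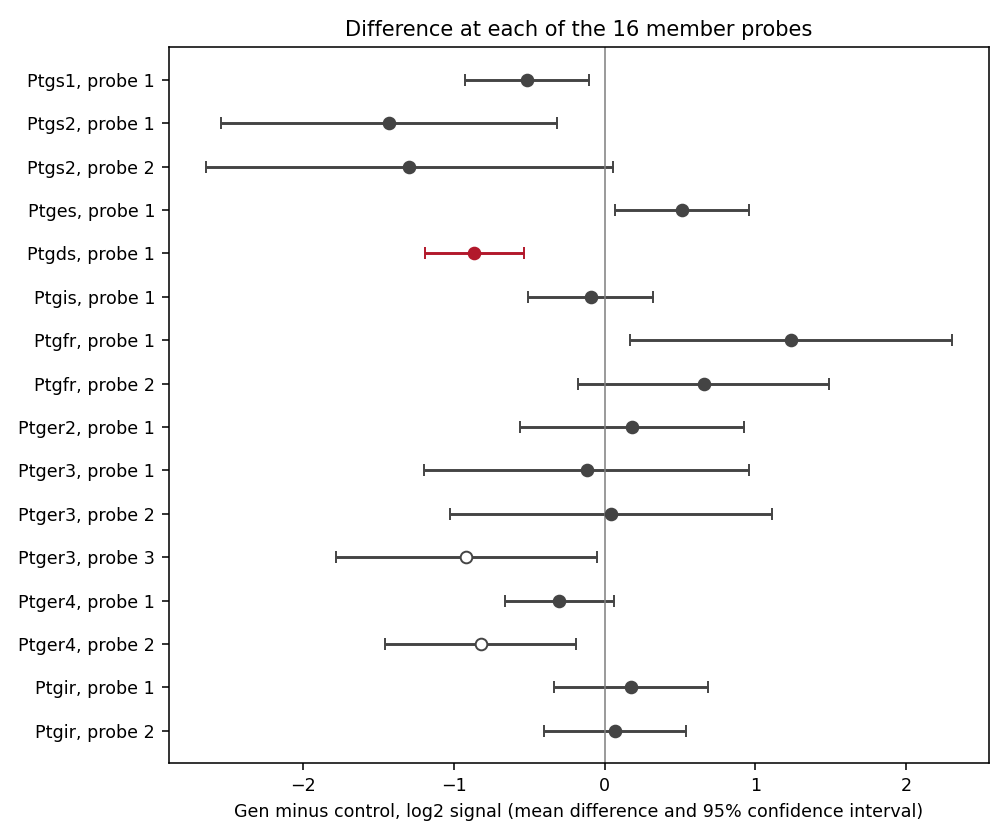
Gen minus control difference (log2) at each of the 16 probes of the 10 members, with its 95% confidence interval from limma. Red marks the only call, Ptgds, at -0.86, and open points mark probes that were not well above background on any array. The intervals of Ptgs2, Ptgfr and Ptger3 are the widest.

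Of the 5 receptors, none passed the limma test and 1, Ptgfr, had an unadjusted p under 0.05. Ptgfr, the receptor of prostaglandin F2 alpha that couples to calcium and contracts smooth muscle, had the largest positive difference. Its brighter probe read 1480, 572, 1077 and 649 in controls and 1625, 4898, 1384 and 1657 in Gen-treated mice. Gen replicate 2 was far above the others, and control replicate 1 was above the lowest Gen array. The difference was 1.24 ± 0.46 (log2, SE, n = 4 per group; adjusted p = 0.121 by limma; 0.0571 by the exact 2-sided permutation test), and it was 0.82 in the lowest and 1.49 in the highest of the 8 fits that left out 1 array. The second probe, 3654 bases away, read 508, 295, 449 and 315 in controls and 387, 1221, 496 and 558 in Gen-treated mice. It gave 0.66 ± 0.36 (log2, SE, n = 4 per group; adjusted p = 0.286), with Gen replicate 2 again highest.

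Ptgir, the prostacyclin receptor, which raises cyclic AMP and relaxes smooth muscle, read 977 to 1755 in controls and 1124 to 1813 in Gen-treated mice. These ranges overlapped for most of their length, and the difference was 0.18 ± 0.22 (log2, SE, n = 4 per group; adjusted p = 0.654 by limma). Its second probe was dim, with 2 of 4 control arrays and all 4 Gen arrays well above background, and gave 0.07 ± 0.20 (log2, SE). The change of Ptgfr minus that of Ptgir within arrays was 1.06 ± 0.55 (log2, SE, n = 4 per group), with p = 0.143 by the exact 2-sided permutation test, so a contractile and a relaxant receptor were not shown to differ.

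The receptors of prostaglandin E2 gave small differences with unequal spread. Ptger2, which raises cyclic AMP, read 1997, 951, 916 and 947 in controls and 1127, 1020, 1137 and 2077 in Gen-treated mice. A single high array in each group, control replicate 1 and Gen replicate 4, stood about as high as the other, and the remaining 3 Gen arrays lay above the remaining 3 controls. The difference was 0.18 ± 0.32 (log2, SE, n = 4 per group; adjusted p = 0.762 by limma), 0.45 without control replicate 1 and -0.05 without Gen replicate 4.
Ptger4, which also raises cyclic AMP, read 1563, 1304, 1278 and 1207 in controls and 1061, 855, 1205 and 1250 in Gen-treated mice. Gen replicate 4 reached into the control range, and the difference was -0.30 ± 0.16 (log2, SE, n = 4 per group; adjusted p = 0.258 by limma; 0.0571 by the exact 2-sided permutation test). A second probe assigned to Ptger4, 27685 bases away, was not well above background on any array and gives no level.

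Ptger3, the receptor that lowers cyclic AMP, varied more between arrays of a group than between groups. Its brightest probe read 1051, 2098, 1488 and 859 in controls and 772, 3007, 868 and 1005 in Gen-treated mice. The second probe read 87.7, 196, 122 and 76.8 in controls and 74.0, 270, 118 and 76.9 in Gen-treated mice. Both probes were highest in control replicate 2 among controls and in Gen replicate 2 among Gen-treated mice. The differences were -0.12 ± 0.47 and 0.04 ± 0.46 (log2, SE, n = 4 per group), with adjusted p of 0.897 and 0.965 by limma. The third probe was not well above background on any array.

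The spread of the members was uneven. The residual SD of the brightest probe was above that of 97.9% of the probes detected on all 8 arrays for Ptgs2, 97.5% for Ptgfr, 97.6% for Ptger3 and 92.3% for Ptger2, but above 38.8% for Ptgds and 48.7% for Ptger4. The extreme values were spread over several arrays. Within controls, replicate 1 was highest for 5 and lowest for 4 of the 10 members, and replicate 4 was lowest for 4. Within Gen-treated mice, replicate 2 was highest for 5 and lowest for 4, replicate 4 highest for 4 and replicate 1 lowest for 4. Such counts over all genes are not given, so nothing particular to the members is read from them. Without control replicate 1, the groups did not overlap for 6 members in place of 3, namely Ptgs1, Ptgs2, Ptges, Ptgds, Ptgfr and Ptger2, while none passed the test. The share over all genes was not computed with an array left out, which makes such a division easier for any gene. Nothing particular to the members is read from this rise.

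The steps before and after these genes were read from 6 lists of 94 genes, of which 92 had a probe and 89 were well above background on all 4 arrays of a group. Of the 89, 10 passed the test, 2 higher and 8 lower in Gen-treated mice, and the median difference was -0.005 (log2). Over all genes detected in the same way 3.16% were higher and 2.18% lower, and nothing particular to these lists is read from the counts. None of 11 other prostaglandin synthases and reductases (among them Ptges2, Ptges3 and Hpgds) and none of 4 detected genes of the list of other receptors (Ptger1, Ptgdr2, Tbxa2r and the receptor regulator Ptgfrn) was called by limma, and 2 and 0 of them had an unadjusted p under 0.05. With dim probes taken out before adjustment, 3 of the 10 calls remained, Alox12, Pla2g2f and Gnai2. Of the fits that left out 1 array, those without Gen replicate 1, 2 or 3 called 0 of the 89, that without control replicate 1 called 1, and the others 6 to 8.

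The list of phospholipases A2 and their regulators also holds lipid hydrolases such as Mgll and Faah. Of its 21 detected genes, 3 were called lower and 18 did not pass, where 2.18% of all detected genes were called lower. Pla2g4a, the cytosolic phospholipase A2 that releases arachidonic acid, read 7160, 8217, 6945 and 6682 in controls and 4754, 3927, 6362 and 4502 in Gen-treated mice, a difference of -0.59 ± 0.16 (log2, SE, n = 4 per group; adjusted p = 0.0461 by limma) with the groups apart and a second probe at -0.54. Mgll, the lipase that breaks down the monoacylglycerol 2-arachidonoylglycerol and so frees arachidonic acid, gave -0.72 ± 0.15 (log2, SE; adjusted p = 0.0236), and its 3 probes differed in size, down to -2.62. Pla2g2f, a secreted phospholipase A2, was dim and gave -1.05 ± 0.18 (log2, SE; adjusted p = 0.0236).
In the lipoxygenase list, Alox12, an arachidonate 12-lipoxygenase, had the smallest p of the 10 genes called. It read 3169, 3234, 3324 and 3107 in controls and 1604, 1522, 1761 and 1829 in Gen-treated mice, or -0.94 ± 0.11 (log2, SE, n = 4 per group; adjusted p = 0.0236 by limma). Alox8, another lipoxygenase, was called higher with all 4 Gen arrays and 0 of 4 control arrays well above background, with mean signals (control 15.6, Gen 30.1) too low to give a fold change.

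Of the 5 genes of breakdown and transport, Abcc4, an exporter of prostaglandins, rose. It read 7233, 7797, 6442 and 7918 in controls and 11128, 8894, 11598 and 13375 in Gen-treated mice, or 0.60 ± 0.15 (log2, SE, n = 4 per group; adjusted p = 0.0289 by limma), and its second probe gave 0.31. Slco2a1, the transporter that takes prostaglandins up, read 17283 to 23884 in controls and 12391 to 16816 in Gen-treated mice, with a difference of -0.46 ± 0.15 (log2, SE; adjusted p = 0.083 by limma) that did not pass. Hpgd, which inactivates prostaglandins, gave 0.03 ± 0.13 (log2, SE).
In the list of receptor coupling, 4 of 34 genes were called lower, where 2.18% of all detected genes were. With dim probes taken out before adjustment 1 of these calls remained, that of Gnai2. Gnai1 and Gnai2, inhibitory G protein subunits, gave -0.55 ± 0.12 and -0.51 ± 0.10 (log2, SE), although the 4 probes of Gnai1 ranged from -0.60 to -0.07. The adenylyl cyclases Adcy5 and Adcy8, which make cyclic AMP, gave -0.35 ± 0.10 and -1.30 ± 0.28 (log2, SE). Their adjusted p ranged from 0.0236 to 0.0468 by limma. The other 30 genes, among them the stimulatory subunit Gnas and the kinases Rock1 and Rock2, did not pass.

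**Figure D4:**
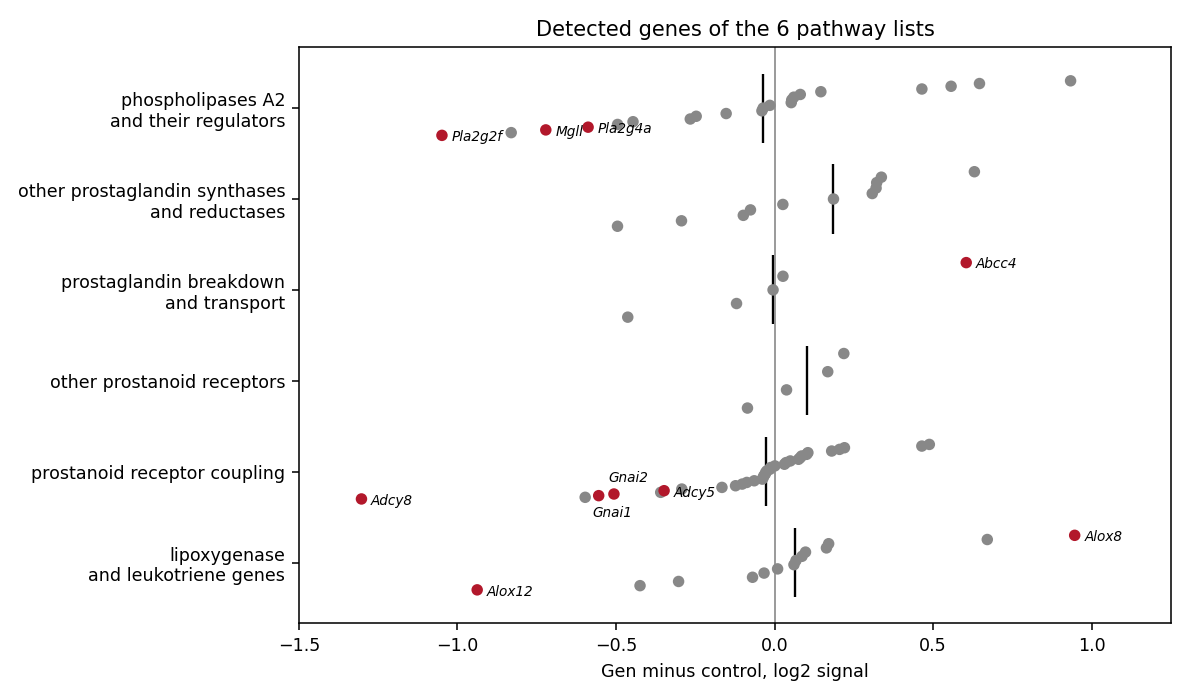
Gen minus control difference (log2) of the 89 detected genes of 6 pathway lists, each read at its brightest probe. Red points are the 10 genes called, with their names, and the black lines are list medians. All medians lie near 0, between -0.04 and 0.19.

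The tissue of the arrays was checked against markers. The oviduct genes Ovgp1, Krt18 and Krt8 were bright in both groups, and 0 of 14 epithelial, 0 of 9 fibroblast and 0 of 9 endothelial markers passed the limma test, with 2, 0 and 0 at an unadjusted p under 0.05. The 9 endothelial differences were all positive, with a median of 0.21 (log2). The 12 smooth muscle markers, which bear on receptors of muscle, gave 0 calls by limma (3 at an unadjusted p under 0.05) and a median of -0.26 (log2), with 11 of 12 negative and summed signals of 1426889 to 1938230 in controls and 1204830 to 1589910 in Gen-treated mice.
Markers of other cells moved with the groups. The T, B and plasma cell list had summed signals of 13814 to 31557 in controls and 49215 to 73080 in Gen-treated mice, with 11 of 12 differences positive. The 3 genes called higher were Jchain, Mzb1 and Cd8a, and 1 call was left with dim probes taken out before adjustment. Cd8a was dim, with 0 of 4 control arrays well above background, and its 3 probes ranged from -1.93 to 1.42 (log2). Of the brightest genes of the T, B and plasma cell list, Jchain gave 2.01 (log2), and Ighm and Cd79b gave 1.08 and 1.02 without passing. The cumulus and granulosa list ran from 3193 to 10868 in controls and from 11291 to 53272 in Gen-treated mice, with 12 of 13 detected genes positive. The 3 called higher were Cyp11a1, Inha and Lhcgr, and 0 calls by limma were left with dim probes taken out before adjustment. Lhcgr had 0 of 4 control arrays well above background, and its groups overlapped. Cyp19a1 was well above background on 0 control and 3 Gen arrays and so is not among the detected genes. It gave 2.43 (log2; adjusted p = 0.0236 by limma). Of its brightest genes, Cyp11a1 and Inha gave 4.43 and 2.54 (log2), and Star gave 1.80 without passing. The sum in Gen-treated mice was mostly that of Cyp11a1, Star and Inha, with mean signals of 11796, 6042 and 4430. The list did not move as a whole. Has2, Foxl2, Btc, Ptx3 and Tnfaip6 gave 0.02, 0.02, 0.12, 0.15 and -0.09 (log2). Areg, Fshr, Ereg and Amh gave 0.36, 0.49, 0.91 and 1.88 (log2) without passing, and Ereg and Amh had 0 of 4 control arrays well above background. Of 12 macrophage markers, Adgre1 and Itgam were called higher (1 of them with dim probes taken out), 11 were positive, and the sums overlapped. For comparison, 3.16% of all detected genes were called higher, and their share of positive differences is not given. Whether the T, B and plasma cell, the cumulus and granulosa and the macrophage lists exceeded either share was not tested.
The mast cell list, whose cells are known to make prostaglandin D2 through Hpgds, had sums of 196790 to 281193 in controls and 127137 to 156600 in Gen-treated mice. This sum was set by Hdc, the enzyme of histamine synthesis, at -0.72 (log2), the 1 gene of 7 detected that was called, and Kit and Cma1 gave 0.24 and -0.51 without passing. Hpgds itself gave -0.49 ± 0.36 (log2, SE; adjusted p = 0.419 by limma). The stratified squamous and the mesothelial and nerve lists had 0 calls by limma among 8 and 7 detected genes, with 0 and 2 at an unadjusted p under 0.05. The part of these cells in the differences of Ptgds, Ptgs2, Ptges and Ptgfr was not tested.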

How the data were processed

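Total oviduct RNA of 4 control and 4 Gen-treated samples had been hybridized to 1-color Agilent whole mouse genome arrays (Cy3). The authors deposited scanner output of Agilent Feature Extraction 9.5, per the labels, whose processed signal is a spot intensity, linear, corrected for background and not scaled between arrays. The deposited series table held the same intensity in all 45018 spots. The Rosetta Resolver steps named in the methods had not been applied to them. The genome build is NCBI build 35, per the file headers.

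The 1639 control spots and outlier spots were left out, spots of a probe averaged as log2, and each array scaled to its 75th percentile; "scaled signal" is this value on the linear scale, and a group's mean signal is its geometric mean. R 4.3.3, limma 3.58.1 (lmFit, eBayes), matplotlib 3.10.9 and the R package for data tables (version 1.17.8) were used. P-values were adjusted over 41173 probes by the Benjamini-Hochberg method, and a call is an adjusted p under 0.05. "Well above background" is the scanner software's flag. Each gene was read at its brightest probe, by mean log2 signal over 8 arrays. Symbols were taken from RefSeq (GRCm38.p6) by accession for 22951 probes and by name or synonym for 9768, and 8455 kept the name in the files. A control array had 25391 to 28949 probes well above background, and a Gen array 29539 to 31486. The median raw signal of undetected probes was 6.48 to 11.9 on control arrays and 3.39 to 6.24 on Gen arrays. Neither range overlapped between the groups. The part of this in counts such as 0 of 4 control arrays for a dim gene was not tested. The 75th percentile signal ran from 1908 to 3772. The number of arrays limits the precision.

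All members, pathway genes called and detected, and the 3 brightest genes of marker lists that moved were named by rule. Slco2a1, Hpgd, Hpgds, Faah, Gnas, Rock1, Rock2, Mzb1, Cd8a, Lhcgr, Adgre1 and Itgam were named after their values were seen. So were the cumulus and granulosa genes Has2, Foxl2, Btc, Ptx3, Tnfaip6, Areg, Fshr, Ereg, Amh and Cyp19a1. Members and lists were chosen with earlier results of these data known. The fit was tested on simulated data. The sequence of 1 other probe is not reported here. Settings tried in turn were quantile or no scaling; normexp correction (offset 50); dim probes removed or floored; outlier spots retained; eBayes with trend and robust options; the methods' t-test; a replicate block; all probes of a gene averaged; values from the deposited series table; and 1 array left out.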

Additional observations from a re-analysis of the deposited data

Results flagged for a closer look

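In 4 of the 28 groups of 4 arrays tested (14 detected member probes in each treatment), 1 array lay far from the others by the gap divided by the range, where chance gives about 1 in 20 groups. Ptgis was 4396 in control replicate 4, below the nearest control at 5203. The first probe of Ptgfr was 4898 in Gen replicate 2, above the nearest Gen array at 1657. Ptger2 was 1997 in control replicate 1, above the nearest control at 951, and 2077 in Gen replicate 4, above the nearest Gen array at 1137.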

How the results depend on the processing

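Of the members, Ptgds kept its direction in all 19 alternatives and its call in 11 of them, and Ptgs2, Ptges, Ptgfr, Ptger4 and Ptgir kept both direction and lack of a call in all 19. Not all of these could differ. The deposited series table holds the same intensities, so its result was fixed in advance. The dim filter, the trend and robust fit, the methods' t-test and the replicate block change only the test, so each difference and its direction were fixed there. For Ptgds, a bright gene with 1 probe, the floor and the average of probes also left the difference at -0.86. Members called were 0 without scaling, with a floor, with the methods' t-test and with the replicate block, 2 (Ptgs1 and Ptgds) with an intensity trend and robust fit, and 0 to 1 with 1 array left out. Members without overlap were 3 to 6 with 1 array left out, where a division is easier for any gene. They were 2 (Ptges and Ptgds) without scaling and with a floor. They were Ptgs2, Ptgds and Ptger4 with normexp, and Ptges, Ptgds and Ptger4 with probes averaged. The average of Ptger4 includes its second probe, which was not well above background on any array. Pathway genes called, 10 in all, were 1 with quantile scaling, 0 without scaling, 2 with normexp, 3 with the dim filter, 1 with a floor, 0 with the methods' t-test and 0 to 8 with 1 array left out. Probes called over the array, 6674 in all (13.4% higher in Gen), were 178 with quantile scaling (54.5% higher), 640 without scaling (73.0%), 251 with normexp (41.0%), 321 with the dim filter (54.5%), 20 with a floor, 0 with the methods' t-test (11364 at an unadjusted p under 0.05) and 1 to 7130 with 1 array left out, and the cause was not tested. The median over the probes detected on all 8 arrays moved from -0.005 to 0.24 (log2) without scaling, which turned Ptgis to 0.15 and Ptger3 to 0.12; normexp turned Ptgis to 0.00189. With 1 array left out, Ptgis ranged from -0.23 to 0.0050, Ptger3 from -0.56 to 0.11 and Ptger2 from -0.051 to 0.45. The change of Ptgis minus that of Ptges lost its exact p under 0.05 with normexp (-0.37) and without each control replicate (exact p = 0.0571), and ranged from -0.72 to -0.50 with 1 array left out. That of Ptgs2 minus Ptgs1 ranged from -1.23 to -0.27, with an exact p of 0.0286 without control replicate 4, and was -0.42 with normexp and -0.029 with a floor. That of Ptgfr minus Ptgir ranged from 0.73 to 1.46, with an exact p of 0.0286 without control replicate 1.

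Deviations of arrays of the same replicate number had correlations of -0.08, 0.11, -0.02 and -0.18 over 24920 probes. The labels give only the number, and whether such arrays shared anything else was not tested. With the replicate block, 1 probe over the array, 0 members and 0 pathway genes were called, and the change of Ptgis minus that of Ptges was -0.60 with an exact p that cannot fall below 0.125 for 4 pairs. Signal over background limits Ptgs2 and the second probe of Ptgir, and gives no level for the third probe of Ptger3 and the second of Ptger4.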
